A study of Homo sapiens with 3 samples.

Results

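The loci described here are 3 antigen receptor loci of the human genome, as they appear in a map of HMGA1 occupancy in a myeloid leukaemia line. They are the immunoglobulin heavy chain locus IGH (hg19 chromosome 14 from 106030000 to 107290000), the immunoglobulin kappa locus IGK (chromosome 2 from 89150000 to 90280000), and the T cell receptor alpha and delta locus TRA/TRD (chromosome 14 from 22080000 to 23030000). Their members are the HMGA1 peaks whose summit falls between these bounds, a choice by position and not by any measured value. Of the 385953 peaks of HMGA1 over input DNA (the input list) 337 were members, and of the 263033 peaks of HMGA1 over histone H3 (the H3 list) 207 were members, so 544 of 648986 rows in all.

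The study used DAMI, a human leukaemic line labelled with myeloproliferative neoplasm and acute myeloid leukaemia, grown in RPMI medium with serum and with no treatment named. Chromatin immunoprecipitation with sequencing (ChIP-seq) gave 3 libraries, an HMGA1 ChIP, a histone H3 ChIP and input DNA without antibody. No library was repeated, so there is no replicate error, every interval is a 95% interval of counting error only, and no p-value is given. The HMGA1 reads are shared by both lists, and finding a site in both is not replication. The lists hold no expression values, and the myeloid label was not checked against marker genes.

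Antigen receptor loci are long arrays of variable (V), diversity (D) and joining (J) segments beside constant (C) genes. Developing lymphocytes cut and join 1 segment of each kind into a working receptor gene, whereas cells of the myeloid lineage as a rule keep these arrays unjoined. HMGA1 is an architectural protein whose AT hooks bind the minor groove of AT-rich DNA, and AT-rich matrix attachment regions are known beside the intronic enhancers of IGH and IGK. The RefSeq gene table (GRCh38.p14), used here only for names and order, lists 174 segments and constant genes in IGH. There are 9 functional constant genes at the low-coordinate end, 6 functional J segments and 27 D segments, and V segments that reach the end of the chromosome arm. It lists 82 in IGK, where the constant gene IGKC and 5 J segments precede a proximal V cluster and an inverted distal copy of it, and 127 in TRA/TRD, where V segments come first and the delta genes, 62 functional J segments (alpha and delta together) and the alpha constant gene TRAC come last.

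Sequence of the hg19 build was not used here, so the DNA under the peaks is not printed. The constant-gene end of IGH can still be shown through the microRNA hairpins that RefSeq (GRCh38.p14, chromosome 14, minus strand) places between the constant gene IGHM and the segment IGHJ6, where the mu switch region lies. Switch regions are the repeats along which B cells exchange constant genes. The hairpins are printed 5′ to 3′ as RNA, with the switch-repeat pentamers GAGCU and GGGCU in capitals, and are followed by MIR5195, which RefSeq places among V segments at the other end of the locus.
MIR4539: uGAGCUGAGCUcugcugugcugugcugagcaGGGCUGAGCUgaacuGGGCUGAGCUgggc
MIR4507: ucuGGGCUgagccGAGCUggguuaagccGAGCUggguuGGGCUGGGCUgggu
MIR4538: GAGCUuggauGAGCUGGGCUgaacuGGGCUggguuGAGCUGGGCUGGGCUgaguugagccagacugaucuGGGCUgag
MIR4537: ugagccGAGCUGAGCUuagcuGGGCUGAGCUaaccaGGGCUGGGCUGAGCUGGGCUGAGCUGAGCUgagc
MIR5195: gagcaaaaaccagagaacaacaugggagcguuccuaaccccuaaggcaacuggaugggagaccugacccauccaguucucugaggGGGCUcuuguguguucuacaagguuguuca

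The hairpins between IGHM and IGHJ6 held 6, 5, 8 and 10 copies of these pentamers on the printed strand in the order shown, and MIR5195 held 1. On the opposite strand MIR4539 held 1 copy and the others none. MIR4507 and MIR4538 overlap by 11 bases on the same strand, and 1 copy lies in that overlap and is printed in both, so the 29 copies are 28 distinct ones. The remaining hairpins of IGH, MIR8071-1 and MIR8071-2, stand between other constant genes and held no copy. Among the 1562 human hairpins listed by RefSeq 24.97% held at least 1 copy on their own strand (34.3% on either strand) and 15 (0.96%) held 3 or more. The G and C content of the switch-region hairpins ran from 61.5% to 67.3%, against 51.3% in MIR5195 and a median of 52.1% over all hairpins. Such values were not particular to them, since MIR8071-1 and MIR8071-2 each had 64.6% and 26.2% of all hairpins had 60% or more. Their hg19 positions were not worked out, so no peak was assigned to or away from them, and the letters show only what kind of DNA stands at that end of IGH.

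HMGA1 peaks were present in all 3 loci, at densities below or near those of the autosomes as a whole. IGK was the densest, with 143 input-list peaks, or 126.5 per Mb (interval 106.7 to 149.1). TRA/TRD had 93 peaks at 97.9 per Mb (79.0 to 119.9), and IGH had 101 peaks at 80.2 per Mb (65.3 to 97.4), against 132.4 per Mb over all autosomes. Relative to the autosomes this was 0.956 times for IGK (0.805 to 1.13), 0.739 times for TRA/TRD (0.597 to 0.906) and 0.605 times for IGH (0.493 to 0.736). The interval for IGK includes the autosomal density, and those for TRA/TRD and IGH lie below it. The same held without peak-free stretches of at least 100 kb in the lengths. The ratios were then 1.09 for IGK (0.920 to 1.29), 0.652 for TRA/TRD (0.526 to 0.799) and 0.715 for IGH (0.582 to 0.868).

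Over H3 the order of the loci at the lower end was not resolved. IGK held 99 peaks at 87.6 per Mb (71.2 to 106.7), IGH 63 at 50 per Mb (38.4 to 64.0) and TRA/TRD 45 at 47.4 per Mb (34.6 to 63.4), against 90.9 per Mb over the autosomes. IGK stood above IGH in both lists, by 1.58 times over input (1.22 to 2.06) and 1.75 times over H3 (1.26 to 2.44). IGK also stood above TRA/TRD over H3, by 1.85 times (1.29 to 2.69), whereas over input the ratio of 1.29 had an interval (0.989 to 1.70) that includes equal density. That call depends on the setting: the ratio was 1.504 (1.08 to 2.12) when peaks under a −log10 q-value of 5 were left out, 1.46 (1.04 to 2.08) when only folds of at least 4 were kept, and 1.67 (1.28 to 2.20) without peak-free stretches of at least 100 kb. IGH and TRA/TRD could not be separated in either list, with ratios of 0.819 over input (0.612 to 1.10) and 1.06 over H3 (0.709 to 1.58).

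Each locus has to be read against its chromosome. Chromosome 14, which carries IGH and TRA/TRD, had 90.6 input-list peaks per Mb as a whole, and chromosome 2, which carries IGK, had 160.3. The chromosome lengths run from the start of each chromosome and include stretches without a peak. Without those of at least 100 kb chromosome 14 had 118.7 per Mb, against 107.3 in IGH and 97.9 in TRA/TRD. Chromosome 2 then had 166.0 per Mb, against 163.9 in IGK. Among the windows of 1 Mb with a peak, 42.7% of those on chromosome 14 held fewer input-list peaks per Mb than IGH and 53.9% held fewer than TRA/TRD. On chromosome 2, 43.0% held fewer than IGK. Over H3 the shares were 57.3% for IGH, 52.8% for TRA/TRD and 40.1% for IGK. By this measure all 3 loci lay near the middle of their own chromosomes.

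**Figure D1:**
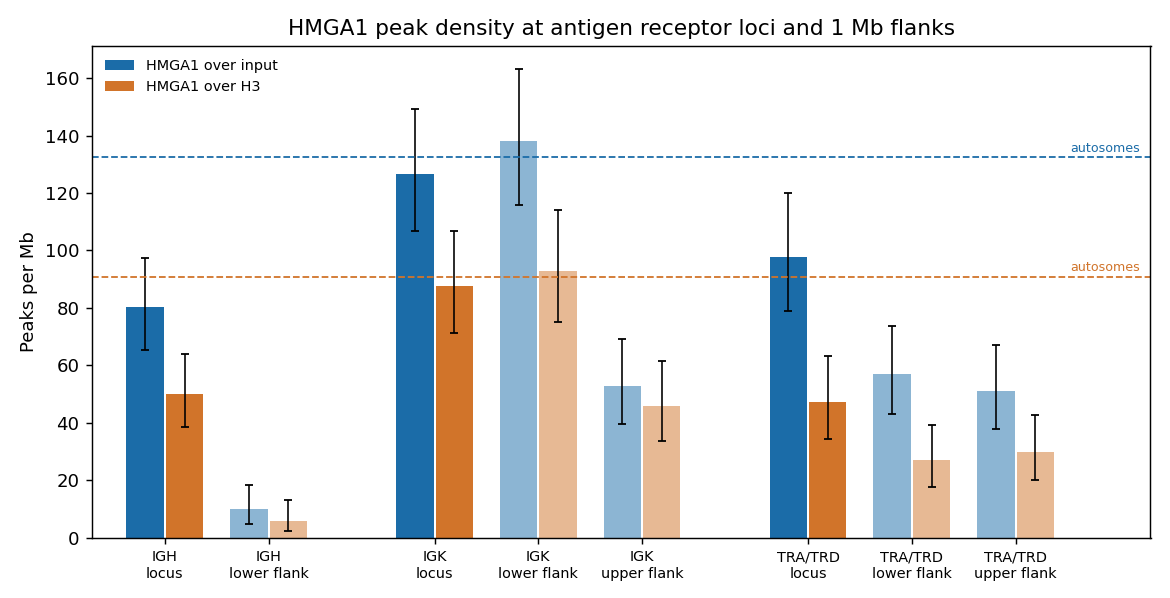
Peaks per Mb (vertical axis) in each locus and in 1 Mb on either side, with exact Poisson 95% intervals, for HMGA1 over input and over H3. Dark bars are loci, pale bars are flanks, and dashed lines give the density over all autosomes (132.4 and 90.9 per Mb). The IGH bars of 80.2 and 50 per Mb stand far above the IGH lower flank at 10.0 and 6.0, while IGK differs little from its lower flank.

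IGH stood out most from its surroundings. The locus held 80.2 input-list peaks per Mb against 10.0 in the lower flank of 1 Mb, which had 10 peaks, a ratio of 8.02 (4.18 to 17.2). Over H3 the densities were 50 per Mb in the locus and 6.0 per Mb in the flank, with 6 peaks in the flank and a ratio of 8.33 (3.62 to 23.6). In RefSeq order MTA1, CRIP2 and TMEM121 are among the last protein-coding genes of this flank before the constant genes. No upper flank could be formed, since the last base under any peak of chromosome 14 was 107284848, inside the locus bounds. With the lower flank widened to 2 Mb the ratio was 3.49 over input. It was 3.36 over input and 3.49 over H3 when stretches of at least 100 kb without a peak were left out of the lengths.

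TRA/TRD was denser than its immediate flanks over input, and not distinguishable from its wider surroundings. It had 97.9 input-list peaks per Mb against 57.0 in the lower and 51.0 in the upper flank, and the ratio to both flanks together was 1.81 (1.36 to 2.41). Over H3 it had 47.4 per Mb against 27.0 and 30.0, with a ratio of 1.66 (1.10 to 2.5). Without peak-free stretches of at least 100 kb the ratio was 1.61 over input (1.21 to 2.14) and 1.48 over H3 (0.9753 to 2.22), so over H3 the interval then includes equal density. With flanks of 2 Mb the ratios were 1.06 over input (0.838 to 1.34) and 0.799 over H3 (0.568 to 1.10), and both intervals include equal density.

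IGK could not be told apart from its lower flank. The locus had 126.5 input-list peaks per Mb against 138.0 in the lower flank, a ratio of 0.917 (0.721 to 1.17), and over H3 87.6 against 93.0 per Mb, a ratio of 0.942 (0.703 to 1.26). The upper flank lies on the side of the centromere. Its 53 input-list peaks all lay in the 0.251 Mb next to the locus, and no peak followed up to the end of the flank. How much of that remainder holds assembled sequence was not analysed here, although its length counts in the ratios to both flanks. Taken with this side, IGK had 1.33 times the density of its flanks over input (1.06 to 1.65) and 1.26 times over H3 (0.964 to 1.64). Without peak-free stretches of at least 100 kb in the lengths the ratios were 1.07 over input (0.858 to 1.34) and 1.02 over H3 (0.781 to 1.33). Over input the interval also included equal density under each of the stricter limits and other flanks tried.

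Within IGH the constant-gene end held few peaks. The hg19 positions of the J and D segments were not worked out, so this end may hold them too. The first 200 kb from the low-coordinate bound held no peak of either list, and the first 400 kb held 6 input-list and 3 H3-list peaks. This end had 15 input-list peaks per Mb (5.50 to 32.6) against 110.5 per Mb (89.4 to 135.0) in the remaining 860 kb, where the V segments lie, a ratio of 0.136 (0.0486 to 0.307). Over H3 it had 7.5 against 69.8 per Mb, a ratio of 0.108 (0.0216 to 0.33). Peak-free stretches of at least 100 kb made up most of this end. Without them 81.6 kb of it remain, while the other 860 kb lose nothing. The ratios were then 0.665 over input (0.238 to 1.503) and 0.527 over H3 (0.106 to 1.61), with intervals that include equal density. Leaving out length without peaks raises these ratios by construction, so they do not test the difference. Over input the interval of the constant-gene end includes the density of the flank beyond it (10.0 per Mb). Over H3 the interval of this end (1.55 to 21.9) includes that of the flank (6.0 per Mb). An unbroken peak-free stretch of 461.3 kb, from 105785159 to 106246473, ran across the locus bound. A second peak-free stretch of 101.9 kb followed, from 106298651 to 106400538.

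Across the V segments of IGH no full bin was empty. Each full bin of 100 kb beyond the first 400 kb held between 7 and 17 input-list peaks and between 4 and 12 H3-list peaks. The highest bin in both lists was the last full one, from 107130001 to 107230000, with 17 and 12 peaks. The bin bounds were set from the locus bounds, but the division at 400 kb was made after the counts were seen.

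TRA/TRD had its sparse end on the opposite side, where the J segments and TRAC come last in RefSeq order. The final 150 kb held 4 input-list peaks, at 26.7 per Mb (7.27 to 68.3), against 89 peaks at 111.25 per Mb (89.3 to 136.9) in the preceding 800 kb, a ratio of 0.24 (0.0639 to 0.636). Over H3 it held 1 peak against 44, a ratio of 0.121 (0.003 to 0.712). The first 200 kb of the locus, at the earliest V segments, was also thin, with 7 input-list peaks, whereas the 6 bins between held 10 to 19 each. This division, too, was made after the counts were seen.

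In IGK the bin with the most peaks lay at the constant-gene end, at the low-coordinate bound where IGKC and the J segments come first in RefSeq order. The first 100 kb held 24 input-list peaks, at 240.0 per Mb (153.8 to 357.1), against 115.5 per Mb (95.7 to 138.3) in the rest of the locus, a ratio of 2.08 (1.28 to 3.24). Over H3 it held 16 peaks, at 160.0 against 80.6 per Mb, a ratio of 1.99 (1.08 to 3.42). The rest of the locus includes a peak-free stretch of 257.5 kb from 89628396 to 89885855, between the proximal and the distal V cluster. Genome sequence is known to be missing between these clusters in hg19, and how much of the stretch that covers was not analysed here. With the stretch left out the rest of the locus had 154.0 input-list peaks per Mb and the ratios were 1.56 over input (0.961 to 2.43) and 1.49 over H3 (0.814 to 2.56), so a denser constant-gene end was then not distinguishable from equal density. In the IGK lower flank, bins of 100 kb held up to 27 input-list peaks. The other full bins of the locus that held peaks had between 10 and 20 over input. The division in IGK was also made after the counts were seen.

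**Figure D2:**
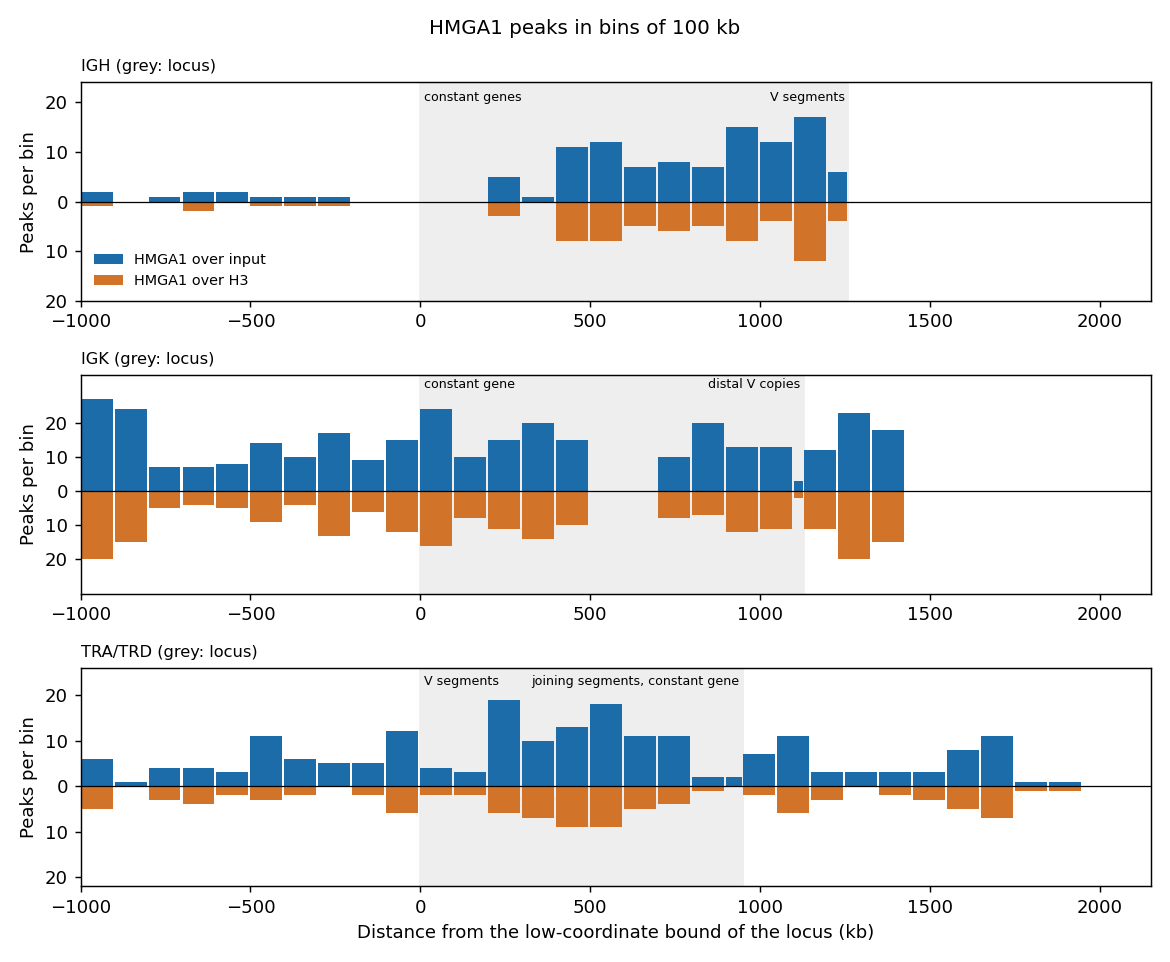
Peaks per bin of 100 kb (vertical axis, HMGA1 over input upward and over H3 downward) against the distance from the low-coordinate bound of each locus, with the locus in grey and 1 Mb on either side where peaks reach. The last bin of each locus is shorter, at 60 kb in IGH, 30 kb in IGK and 50 kb in TRA/TRD. IGH is empty in its first 200 kb, within IGK the highest bin, with 24 peaks, is at the constant-gene end, and TRA/TRD thins out in its last 150 kb.

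The leading IGH peaks all lay in the V part. The highest fold over input was 11.4, at 107024569 to 107025016, where the summit held 42 HMGA1 reads and the −log10 q-value was 31.2. The files hold no read counts, and reads at a summit are numbers worked out from the fold and p-value that the authors deposited. The same site over H3 had a fold of 8.51 with the same 42 reads, because the H3 control there was 3.0 reads and thus above its genome-wide floor of 2.19. The next sites, at 106984914 to 106985564 and at 107198278 to 107198714, had 37 reads each and equal folds of 10.0 over input. Over H3 they differed, at 9.44 for the first and 7.53 for the second. The widest IGH peak, 1127 bp from 107145192, reached a fold of 5.55 with 20 reads and was met by 2 separate H3-list peaks. The widest H3-list peak of the locus was 803 bp from 106870938, with 35 reads and a fold of 7.5.

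The highest peak of the 3 loci was in the proximal V cluster of IGK. At 89462419 to 89463079 HMGA1 had 48 reads, a fold of 12.8 over input and 12.2 over H3, and −log10 q-values of 37.8 and 28.8. It was followed over input by the site at 89243945 (45 reads, 12.2-fold over input and 10.1-fold over H3) and the site at 89173142 (43 reads, 11.6-fold and 9.58-fold), both in the first 100 kb of the locus. In the H3 list the next ranks were instead a site of the distal cluster, at 90097133 to 90097781, with 44 reads and 11.2-fold over H3 (9.87-fold over input), and a site at 89564029 with 42 reads and 10.7-fold over H3. The widest IGK peaks were 1303 bp from 89424801 over input (5.53-fold) and 842 bp from 89217460 over H3 (8.31-fold).

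TRA/TRD had 1 leading peak and little behind it. The peak from 22572049 to 22572954 was first by q-value, fold and width in the input list, with 38 reads, 10.3-fold enrichment, a −log10 q-value of 26.7 and a width of 906 bp. Over H3 the same site was narrower, 317 bp, at 9.69-fold. The sites at 22376346 and 22323349 followed with 30 and 29 reads and with folds of 6.8 and 6.58 over input and 7.72 and 7.47 over H3. Here the folds over H3 were the higher ones, since H3 was at its floor while input was above its own. The widest H3-list peak was 507 bp from 22121045, with 20 reads and a fold of 5.25. All of these leading sites of the 3 loci were found in both lists. Such overlap is common among peaks of this height. In the whole input list 98.5% of peaks with 25 or more reads and 92.4% of those with 20 to 24 overlapped an H3-list peak. Of the whole H3 list 98.3% overlapped an input-list peak. In the input list the top IGK peak ranked 3303 by q-value, with 0.856% of the list above it by q-value and 0.251% by fold. The top IGH peak ranked 7136 (1.85% above it by q-value and 0.728% by fold), and the top TRA/TRD peak 12493 (3.24% and 1.57%).

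The members had folds near the whole-list median, and their share of high peaks differed by locus. Input-list folds ran from 2.11 to 12.8 over the 3 loci with a median of 4.59, against 4.5 in the whole list, and locus medians were 4.76 in IGK, 4.5 in IGH and 4.23 in TRA/TRD. H3-list medians were 5.25 in IGK, 5.25 in IGH and 5.17 in TRA/TRD, against 5.25 in the whole list. The median input-list summit held 20 HMGA1 reads in IGK and 17 in both IGH and TRA/TRD, against 19 in the whole list. Peaks with at least 25 reads made up 17.8% of the members (60 of 337) against 28.3% of the whole input list. By locus they were 24.5% in IGK (35 peaks, interval 18.2 to 32.1), 17.8% in IGH (18 peaks, 11.6 to 26.4) and 7.53% in TRA/TRD (7 peaks, 3.69 to 14.7). The share on all of chromosome 14 was 11.9%, which the intervals of both TRA/TRD and IGH include. That on all of chromosome 2 was 29.0%, and the interval of IGK includes both it and the whole-list share. In the H3 list 29.0% of the members reached 25 reads, against 41.3% of that list, and IGK had 35.4% (26.6 to 45.2).

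The control level at the peaks divided the loci by chromosome. The peak caller is taken to use the higher of the local control coverage and a genome-wide floor, so lower levels are not seen and folds at the floor are understated. The input control was at its floor of 2.78 reads at 77.4% of the TRA/TRD peaks (67.9 to 84.7), 77.2% of the IGH peaks (68.1 to 84.3) and 42.7% of the IGK peaks (34.8 to 50.9), against 36.4% of the whole list. The share on all of chromosome 14 was 77.1%, and on all of chromosome 2 it was 21.4%. Over input IGH and TRA/TRD were thus close to their chromosome, while IGK was at the floor more often than chromosome 2. Over H3 the floor shares were 84.4% in TRA/TRD, 74.6% in IGH and 39.4% in IGK (30.3 to 49.2). The share was 42.9% in the H3 list, 81.0% on chromosome 14 and 35.2% on chromosome 2. The IGK interval over H3 includes the chromosome 2 share, so that contrast was not resolved there. The low control of chromosome 14 as a whole moves with the values of IGH and TRA/TRD, and its part in them was not tested.

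Along the loci the control level can be followed only above the floor. The median input control per bin of 100 kb was at the floor in every bin of IGH and TRA/TRD that held a peak, and between 1.0 and 1.28 times the floor in IGK. Over H3 it reached 1.28 times the floor in IGH and 1.37 times in IGK, and single input-list peaks reached 2.24 times in IGH, 2.88 times in IGK and 1.92 times in TRA/TRD. Across the upper bound of IGK the picture changed: the peaks of the upper flank had a median control of 2.31 times the floor over input and 2.39 times over H3. Their median summit held 37 HMGA1 reads with a highest value of 190 over input, against 20 and 48 in the locus, and the median fold was 4.57 against 4.76. Over H3 the median fold was instead higher in the upper flank, at 5.93 against 5.25 in the locus. The raised control beyond the bound moves with the higher read numbers there, and its part in them was not tested.

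**Figure D3:**
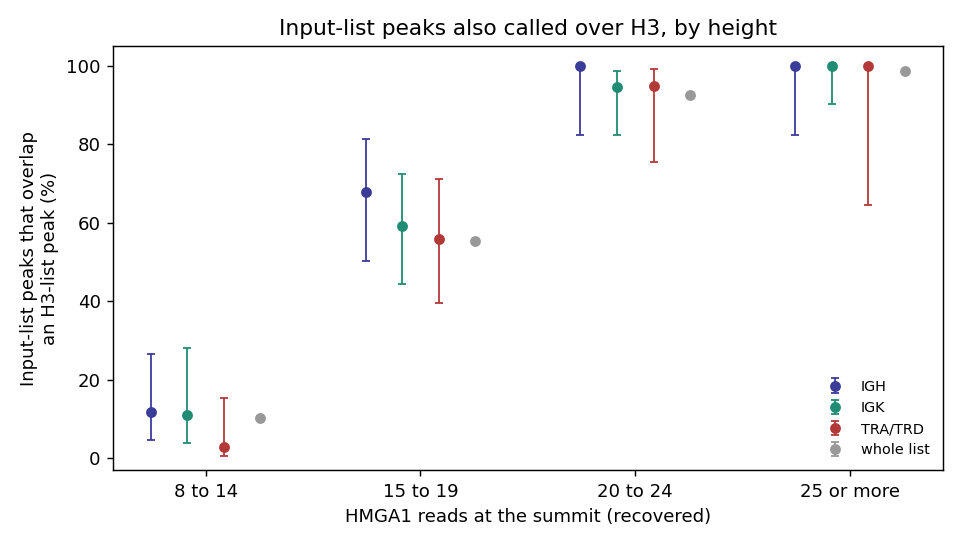
Share of input-list peaks that overlap an H3-list peak by at least 1 bp (vertical axis, with Wilson 95% intervals) by the number of recovered HMGA1 reads at the summit, for the 3 loci and the whole input list. In each class the intervals of all 3 loci include the whole-list share, and every member with 25 or more reads was found over H3.

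TRA/TRD had the lowest share of input-list peaks that were also found over H3. Of the input-list peaks, 69.2% in IGK (99 of 143, interval 61.2 to 76.2), 60.4% in IGH (61 of 101, 50.6 to 69.4) and 48.4% in TRA/TRD (45 of 93, 38.5 to 58.4) overlapped an H3-list peak, against 65.8% of the whole list. The chromosome 14 share was 52.0% and that of chromosome 2 was 70.1%. The intervals of TRA/TRD and IGH overlap and both include the chromosome 14 share, and the interval of IGK includes that of chromosome 2. The share increased with peak height in the loci and in the whole list. Of members with 8 to 14 reads, 8.51% (8 of 94) overlapped an H3-list peak against 10.4% of such peaks in the whole list, and with 15 to 19 reads 60.6% (66 of 109) against 55.4%. With 20 to 24 reads the shares were 95.9% (71 of 74) and 92.4%, and with 25 or more reads 100% (60 of 60) and 98.5%. TRA/TRD had 33 of its 93 peaks in the lowest class, against 34 of 101 in IGH and 27 of 143 in IGK.

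In the other direction nearly all H3-list members were input-list sites as well, at 99.03% (205 of 207) against 98.3% of the H3 list. The 2 exceptions were an IGH peak at 106816749 to 106816972 with 24 reads, a fold of 3.98 and an H3 level of 4.0, and an IGK peak at 89892820 to 89893026 with 16 reads and a fold of 3.9. They are named because they are the only ones, and they were not picked by the rule for leading peaks. Summits placed on an identical base by both lists numbered 32 in IGH, 41 in IGK and 19 in TRA/TRD, and each had the same HMGA1 reads either way. Among them the input control exceeded the H3 control by more than 1.5 times, each relative to its floor, at 6 IGK sites, and the H3 control exceeded input by as much at 3. No such site was seen in IGH or TRA/TRD. However, both controls were at their floor at 65.6% of these summits in IGH and 63.2% in TRA/TRD, against 19.5% in IGK. Summits with both controls at the floor cannot differ in this way, so the loci are not comparable by these counts. The share over the whole lists was not worked out.

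The V clusters of IGK, an inverted duplication, showed HMGA1 peaks in mirror image. If a proximal summit and its distal counterpart lie at the same distance from an axis, their coordinates add up to the same sum, so sums were compared over all pairs of a proximal and a distal summit. In the input list 32 pairs fell within 1 kb of each other in this sum. The fullest window more than 50 kb away held 19 pairs and the median window 8. The axis lay in the peak-free stretch between the clusters, near 89760087. The H3 list, which shares the HMGA1 reads, gave 19 pairs against 11 elsewhere and a median of 4, with its axis near 89760103. This comparison was chosen after the data were seen, it takes the fullest of many windows, and no chance level was computed.

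The mirrored stretch is the span of the pairs in the fullest window of 1 kb, so its length depends on the search. In the input list its proximal side ran from 89422704 to 89617284 (194.6 kb) and held 41 summits, of which 31 (75.6%) had a distal partner. Its distal side ran from 89903849 to 90097604 (193.8 kb) and held 37 summits, of which 29 (78.4%) had a proximal partner. These spans are bounded by the outermost pairs, and over all input-list summits of the locus 36.9% of the 84 proximal and 49.2% of the 59 distal ones were in pairs. The highest peak of the locus, with 48 reads at 89462607, was paired with a distal summit of 31 reads at 90057650. The distal summit with 44 reads at 90097604, which ranked second over H3, was paired with a proximal summit of 39 reads at 89422704. Proximal and distal reads differed by no more than 5 in 16 of the 32 pairs, and the medians were 22 proximal and 20 distal reads. Over all IGK input-list peaks the quartiles were 15 and 24 reads, so small differences can also arise between summits that are not partners. The share for such other pairs was not worked out. Across the 32 pairs, which share libraries and in a few cases a summit, Pearson's r was 0.537 and Spearman's rho 0.34.

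Farther from the axis the fullest input-list window stood out less from the others. Among the 42 proximal and 20 distal input-list summits outside the mirrored stretch, 13 pairs shared a sum within 1 kb, and the fullest window over 50 kb away held 11. Over H3 it was 10 pairs of 30 and 17 summits, against 6 elsewhere. In both lists, which share the HMGA1 reads, these outer pairs lay at the same sum, 179538662. That sum was 18.4 kb away from the sum of the mirrored stretch. With no chance level computed, whether the outer pairs mark another axis was not tested. When summits of the same orientation were compared by their distance instead, the fullest window over the whole locus held 19 pairs over input and 12 over H3. The same search for mirror pairs gave at most 12 input-list pairs in IGH, with 10 elsewhere and a median of 4. In TRA/TRD it gave 15, with 12 elsewhere and a median of 5. Both loci were divided at their midpoint, and they had fewer summits to pair than IGK. There were 29 lower and 72 upper summits in IGH, of which 37.9% and 13.9% were in pairs. In TRA/TRD there were 46 and 47, with 26.1% and 29.8% in pairs, against 36.9% and 49.2% in IGK.

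**Figure D4:**
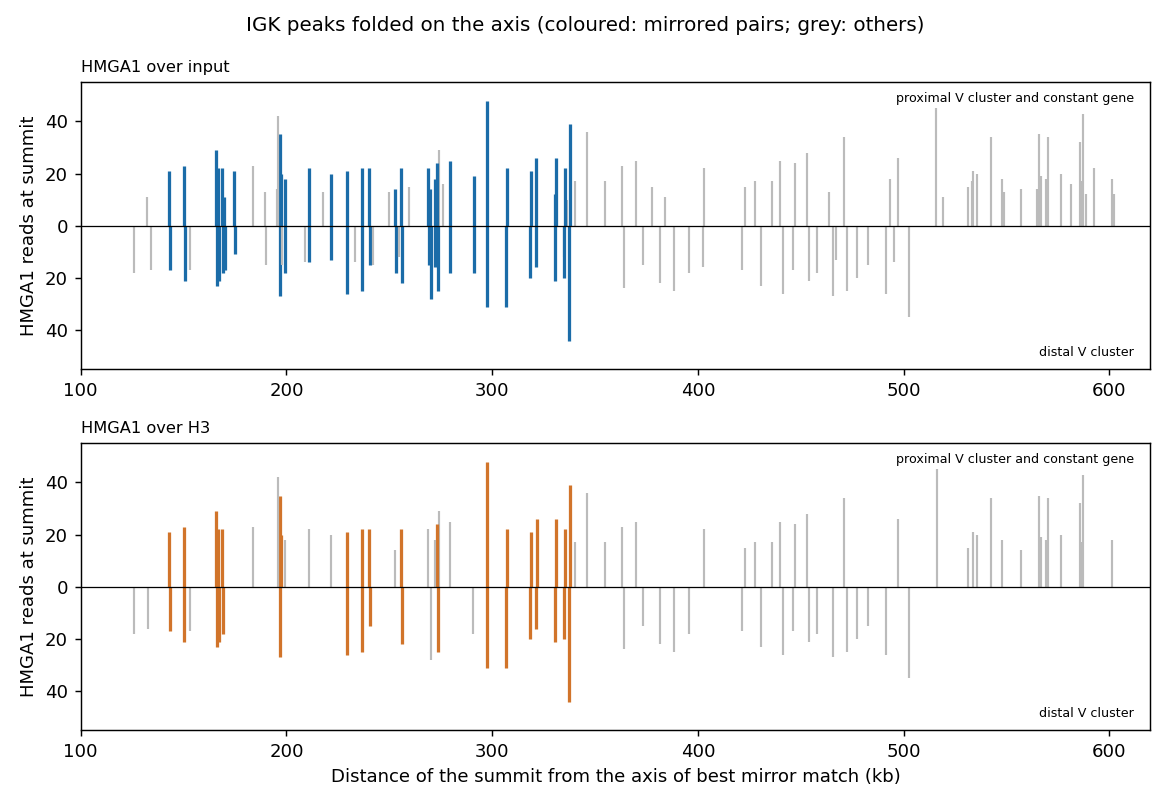
HMGA1 reads at each IGK summit (vertical axis) against its distance in kb from the axis of the best mirror match, with summits below the axis drawn upward (proximal V cluster and constant gene) and those above it downward (distal V cluster). Coloured lines are summits in mirrored pairs and grey lines are all others. In the input list 32 pairs face each other between the start of the mirrored stretch and the pair with 39 and 44 reads at its far end, and in the H3 list 19 pairs do.

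As totals, the proximal part of IGK from the locus bound to the peak-free stretch held 84 input-list peaks at 175.6 per Mb and the distal part 59 at 149.7 per Mb, a ratio of 1.17 (0.831 to 1.67). Over H3 there were 59 peaks at 123.3 per Mb and 40 at 101.5 per Mb, a ratio of 1.22 (0.80 to 1.86). Both intervals include equal density. The median summit held 20.5 proximal and 18 distal reads over input. The control was at its floor at 41.7% of the proximal and 44.1% of the distal peaks. The near-identical copies can compete for the same reads. How the authors treated reads that match more than 1 place is not given in the sources used here, so peaks in either copy are uncertain in their assignment, and the part of shared reads in the mirror image was not tested.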

How the data were processed

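HMGA1 ChIP, H3 ChIP and input DNA of DAMI cells were measured in 1 library each. Peaks were called with MACS2 on hg19, per the submitters' processing notes. For the aligner, the read filters and the MACS2 version, no statement was found in the labels. Peaks were deposited by the authors as 2 lists, with input or H3 as control. The peak names begin with a prefix that is not HMGA1, and the lists' own names were relied on for the ChIP target. Each deposited row holds a fold ratio over control at the summit, −log10 p-values and q-values, and a score of 10 times the −log10 q-value. The other column used is the summit offset.

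HMGA1 reads and control levels were recovered by assuming that the fold is the pileup plus 1 over the control plus 1 and that the p-value is a Poisson tail. Whole pileups fitted 385953 of 385953 input-list peaks within 0.001 of the −log10 p-value. They fitted 263031 of 263033 H3-list peaks after scaling HMGA1 by 0.787. The depth of the libraries in reads is unknown. The recovery and the ratio intervals were tested on simulated data.

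Densities use the rule bounds. Autosomal lengths run from the start of each chromosome to the last base under a peak, and include peak-free stretches unless stated. Ratios have exact conditional binomial intervals, densities exact Poisson intervals and shares Wilson intervals. Named peaks are, per locus and list, the 3 highest by q-value, the highest fold and the widest. The members, bounds and comparisons were chosen with earlier results of these data known. Alternatives were stricter q-values and folds, membership by overlap, other flanks, trimmed lengths and other definitions of overlap. Tools were Python 3.11.15 with scipy 1.17.1, numpy 2.4.6, matplotlib 3.10.9 and pandas 2.3.3. Coordinates are 1-based.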

Additional observations from a re-analysis of the deposited data

How the results depend on the processing

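No paired analysis was possible because each antibody has 1 library, and no replicate could be left out. Of 143 alternative values, 124 stayed within the counting interval (for pair counts, within 1.5 times) of the value reported. This total is a weak guide, since 33 of the 124 came from membership by overlap, which left the values unchanged. Some intervals were also wide. For IGH over its flank the interval over input was 4.18 to 17.2, and a flank of 500 kb gave 13.4. When peaks under a −log10 q-value of 5 were left out, the median input-list fold was 5.55 in IGH, 5.71 in IGK and 5.02 in TRA/TRD, and the share of input-list peaks found over H3 was 77.0% in IGH and 64.9% in TRA/TRD. With a fold of at least 4 that share was 84.7% in IGH, 76.6% in IGK and 68.5% in TRA/TRD. These limits remove low peaks by construction. The density of IGH over its flank was 3.36 (input) and 3.49 (H3) without peak-free stretches of at least 100 kb, and 3.49 over input with a flank of 2 Mb. Leaving out such stretches, chosen after seeing the data, put the constant-gene end of IGH at 0.665 (input) and 0.527 (H3) times the rest, a rise that this trimming brings by construction. For TRA/TRD flanks of 2 Mb gave 1.06 over input and, in the opposite direction to the value reported, 0.799 over H3. With the lower flank only, chosen after seeing the data, IGK gave 0.917 over input, also reversed, and 0.942 over H3. For IGK over TRA/TRD, the IGK and TRA/TRD flanks and the constant-gene ends of IGH and IGK, some intervals changed in whether they include equal density, as given with those values. What causes these differences was not tested. A mirror window of 500 bp, added after seeing the data, gave 20 pairs over input and 12 over H3, the H3 pairs at a different sum. Sites too low to be called, and control levels under the floor, were not detectable at this depth.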
